A study of Mus musculus with 10 samples.

Results

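The genes described here are 10 RNA-binding regulators that act when a neural progenitor becomes a neuron: Ptbp1, Ptbp2, Nova1, Nova2, Rbfox1, Rbfox2, Rbfox3, Srrm4, Elavl3 and Elavl4. They are named for their known roles, with earlier results of these data known when the set was drawn up, they belong to 5 families, and they are 10 of the 53801 genes in the deposited table. All 10 passed the expression filter and are among the 16187 genes tested. The 10 libraries came from wild-type mouse dorsal brain in which the StarTrack lineage-tracing reporters had been electroporated in utero at embryonic day 12. Sorting at embryonic day 14 gave NG2+ cells (5 libraries) and GFAP+ cells (5 libraries), all labelled batch 1. The sources used here give neither the strain, nor the number of embryos behind a library, nor how the sorter recognised NG2+ and GFAP+ cells. Nothing in the labels says that the replicates came from separate animals, so p-values measure the spread between these libraries, which may be technical.

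Progenitors and neurons splice the same genes differently, and a small group of RNA-binding proteins sets much of that difference. Ptbp1 is made in progenitors and in most cells outside the nervous system and represses many exons that neurons include. Its paralogue Ptbp2 takes its place in newborn neurons. Srrm4 (also called nSR100) promotes the inclusion of very short neuronal exons, the Nova and Rbfox proteins promote or repress neuronal exons according to where they bind, and the neuronal Elavl (Hu) proteins stabilise neuronal transcripts and also act on splicing. Gene-level counts were deposited, so the measurements below are amounts of each regulator's transcripts and not the splicing of its targets.

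The link between the Ptbp genes runs through 1 exon of Ptbp2, shown here because the deposited Ptbp2 count adds up transcripts with and without it. In the GENCODE M21 annotation it is exon 10 of 14 in an annotated coding transcript of Ptbp2, at chr3:119724612-119724645 on the minus strand of GRCm38, and 3 of the 13 annotated Ptbp2 transcripts hold it. Ptbp1 is known to cause its skipping, and the skipped transcript is a substrate of nonsense-mediated decay. The exon is 34 bases long, which leaves a remainder of 1 when divided by 3. The first line gives the exon in capitals between 30 bases of each neighbouring exon, and the second gives the joined neighbours up to the first stop codon, in capitals.
Ptbp2 with the exon: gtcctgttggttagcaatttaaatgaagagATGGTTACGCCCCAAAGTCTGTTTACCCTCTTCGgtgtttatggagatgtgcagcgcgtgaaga
Ptbp2 without the exon: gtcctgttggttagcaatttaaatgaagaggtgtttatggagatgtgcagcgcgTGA
With the exon the reading frame ran for 532 codons before its stop. Without it the frame ended after 356 codons, 8 codons past the new junction, with 3 further exon junctions downstream of the stop.

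Library totals lay between 14256176 and 17569730 counts in the NG2 group and between 12945436 and 16189859 counts in the GFAP group. NG2 replicate 5 stood apart. It had the largest total, 17569730 counts, but reads for 18903 genes against at least 22988 in every other library. Its highest r with another library, on log2 CPM of the tested genes, was 0.929, where every other library reached at least 0.979. Cspg4, which encodes NG2, averaged 6.75 ± 1.47 CPM in NG2 against 1.07 ± 0.356 CPM in GFAP libraries, and Gfap had 6 reads over all NG2 libraries and 10 over all GFAP libraries (SD, n = 5 each; CPM are counts scaled to library size with TMM factors). Both populations carry the cell type label of neural stem cells, and 14 measured markers of newborn and differentiating neurons summed to between 6781 and 9750 CPM in NG2 and between 5384 and 6962 CPM in GFAP libraries, with 13 of 14 fold changes positive. The 15 radial glia markers summed to between 1479 and 2499 CPM in NG2 and between 2257 and 3273 CPM in GFAP libraries, with 14 of 15 fold changes negative. By edgeR 0 genes of either list passed the adjusted threshold. Below an unadjusted p of 0.05 by edgeR, 9 of the 14 neuron markers were higher in NG2, where 6.45% of all tested genes were. At the same p, 6 of the 15 radial glia markers were lower, where 6.33% of all tested genes were. The part of these markers in the values below was not tested. The libraries thus held transcripts of neurons as well as of progenitors, and in such bulk samples fewer cells of a type and less RNA per cell cannot be told apart.

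Progenitor and neuronal regulators were present together in every library. Per unit of length, Elavl4 was the most abundant of the 10, at 77.6 ± 4.97 FPKM (SD over the 10 libraries; FPKM are the deposited values per unit of gene length and library depth), above 95.2% of all tested genes. Its lowest library lay above the highest library of every other member. A group of 5 genes followed at close levels: Ptbp1 at 35.6 ± 7.71, Elavl3 at 32.5 ± 7.36, Ptbp2 at 32.3 ± 4.19, Rbfox1 at 32.0 ± 8.95 and Rbfox3 at 29.5 ± 3.65 FPKM. The ranges of neighbours in this order overlapped, and Ptbp1 exceeded Elavl3 in 4 of 10 libraries. Srrm4 stood at 23.0 ± 3.98 FPKM and Rbfox2 at 18.7 ± 2.38 FPKM. The Nova genes came last without overlapping their neighbours, Nova2 at 7.49 ± 1.30 and Nova1 at 0.924 ± 0.250 FPKM, and Nova1 lay above only 19.6% of the tested genes.

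No member passed an adjusted p of 0.05 between NG2 and GFAP libraries by edgeR in either direction. Over all tested genes 0.148% passed, of which 12 genes (0.0741%) were higher and 12 (0.0741%) lower in NG2. At an unadjusted p of 0.05, Rbfox1 was on the higher side and Nova1 on the lower side, or 2 of 10 members, where 12.8% of all tested genes fell below that value. DESeq2 also called 0 members, where it called 2.66% of all genes with an adjusted p. The same 2 members lay below an unadjusted 0.05 by DESeq2, where 8.54% of all genes with a p did. Fold changes were positive for 2 members and negative for 8, and their median log2 value was -0.09 against -0.01 over all tested genes. The groups overlapped for each of the 10 members, while 3.28% of all tested genes showed no overlap.

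**Figure D1:**
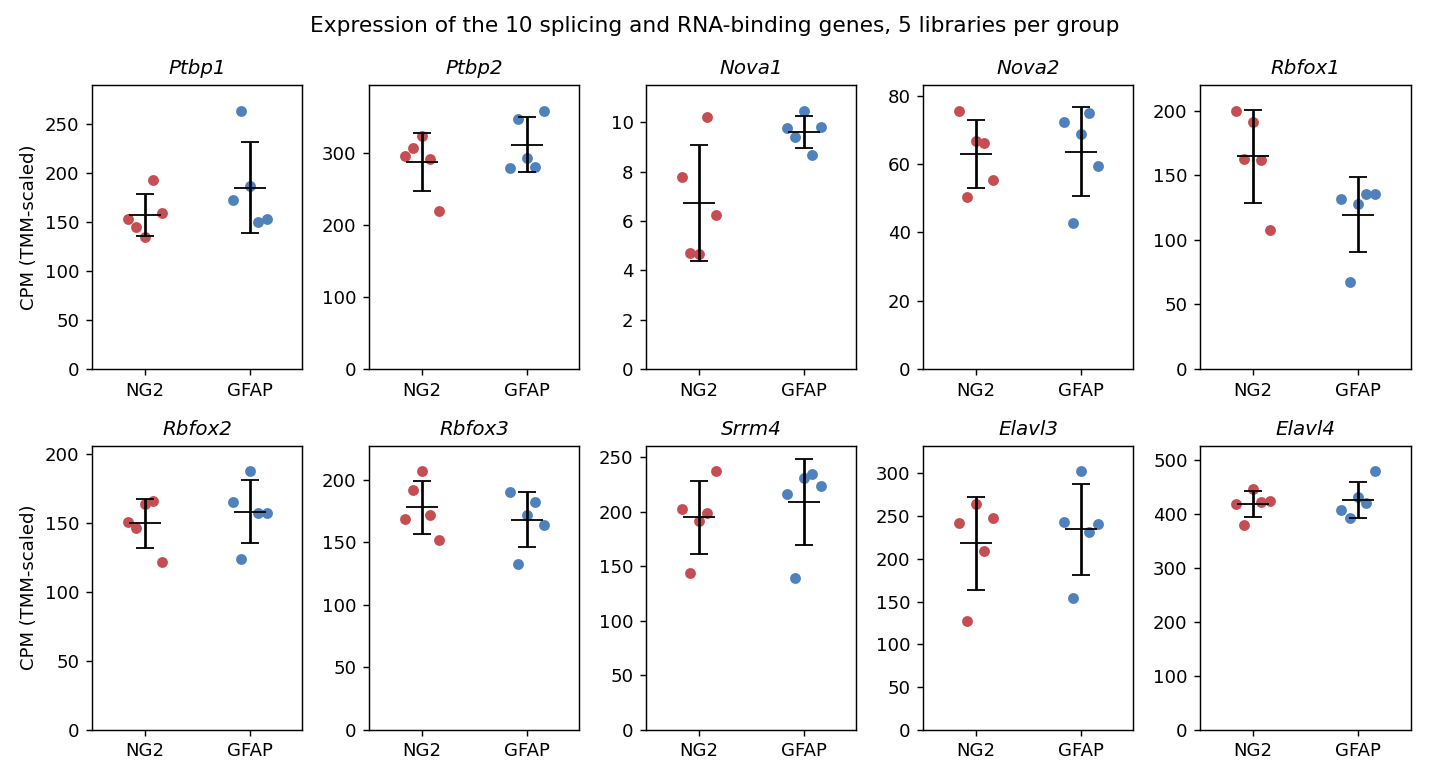
CPM of each of the 10 genes in the 5 NG2 and 5 GFAP libraries; each point is a library, and the bars give the mean and SD of a group. The groups overlap for every gene, with 4 of 5 NG2 libraries above the highest GFAP library for Rbfox1 and 4 of 5 below the lowest GFAP library for Nova1.

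Ptbp1, the progenitor repressor, had 153, 145, 135, 192 and 159 CPM in NG2 replicates 1 to 5, against 172, 263, 186, 149.9 and 152 CPM in GFAP replicates 1 to 5. The groups overlapped, and GFAP replicate 2 was far above all other libraries. The log2 fold change was -0.24 (SE 0.15, edgeR, Benjamini-Hochberg adjusted p = 0.535), with a 95% interval of 0.681 to 1.06 for the ratio of NG2 to GFAP. Without GFAP replicate 2 it was -0.07, and by voom with sample weights 0.09. Ptbp1 (ENSMUSG00000006498, chromosome 10, 79854427 to 79864771, plus strand, GRCm38) overlaps Plppr3 on the opposite strand, with 5773 to 11987 reads a library and a log2 fold change of 0.34 (edgeR, Benjamini-Hochberg adjusted p = 0.298), so the origin of part of the Ptbp1 reads is uncertain.

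Ptbp2, the neuronal paralogue (ENSMUSG00000028134, chromosome 3, 119718742 to 119784466, minus strand), had 296, 307, 323, 291 and 219.6 CPM in NG2 replicates 1 to 5, against 279, 346, 292, 281 and 358 CPM in GFAP replicates 1 to 5. NG2 replicate 5 was the lowest of the 10 libraries and the other 9 were intermixed. The log2 fold change was -0.12 (SE 0.12, edgeR, Benjamini-Hochberg adjusted p = 0.718). The FPKM ratio of Ptbp2 to Ptbp1 averaged 0.966 ± 0.217 in NG2 and 0.902 ± 0.203 in GFAP libraries (SD, n = 5 each). It ran from 0.715 to 1.24 over the NG2 libraries and from 0.680 to 1.22 over the GFAP libraries, so the balance of the pair varied more within each group than between them.

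Rbfox1, a splicing factor of maturing neurons (ENSMUSG00000008658, chromosome 16, 5885355 to 7411526, plus strand), had the largest positive difference of the 10. It had 200.1, 162, 192, 162 and 108 CPM in NG2 replicates 1 to 5, against 132, 67.4, 128, 136 and 136 CPM in GFAP replicates 1 to 5. Replicates 1 to 4 of NG2 exceeded every GFAP library, and NG2 replicate 5 fell among them. The means were 165 ± 36.1 CPM in NG2 against 119.7 ± 29.4 CPM in GFAP libraries (SD, n = 5 each), a log2 fold change of 0.46 (SE 0.19). By edgeR its unadjusted p was 0.0288 and its Benjamini-Hochberg adjusted p 0.334, so it did not pass. In the authors' deposited table its log2 fold change is 0.48 with an adjusted p of 0.174. The DESeq2 fit here gave nearly the same log2 fold change (0.48, adjusted p = 0.169), so the deposited value is no separate result.

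The call for Rbfox1 differed between fits. With NG2 replicate 5 and GFAP replicate 2 both left out, an alternative added after the values were seen, Rbfox1 was 1.35-fold higher in NG2 (log2 fold change 0.43, SE 0.09, edgeR, Benjamini-Hochberg adjusted p = 0.0384), where 0.669% of all tested genes were called higher. The libraries left out held the lowest Rbfox1 value of each group. Voom with sample weights also called it, at a log2 fold change of 0.37 (SE 0.10, Benjamini-Hochberg adjusted p = 0.0378), where 3.61% of all tested genes were called higher. Without NG2 replicate 5 alone the log2 fold change was 0.58 and without GFAP replicate 2 alone 0.31, and neither passed by edgeR (Benjamini-Hochberg adjusted p = 0.104 and 0.367). Over the 19 alternatives its sign was positive in all and its adjusted p ran from 0.0378 to 0.543.

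**Figure D2:**
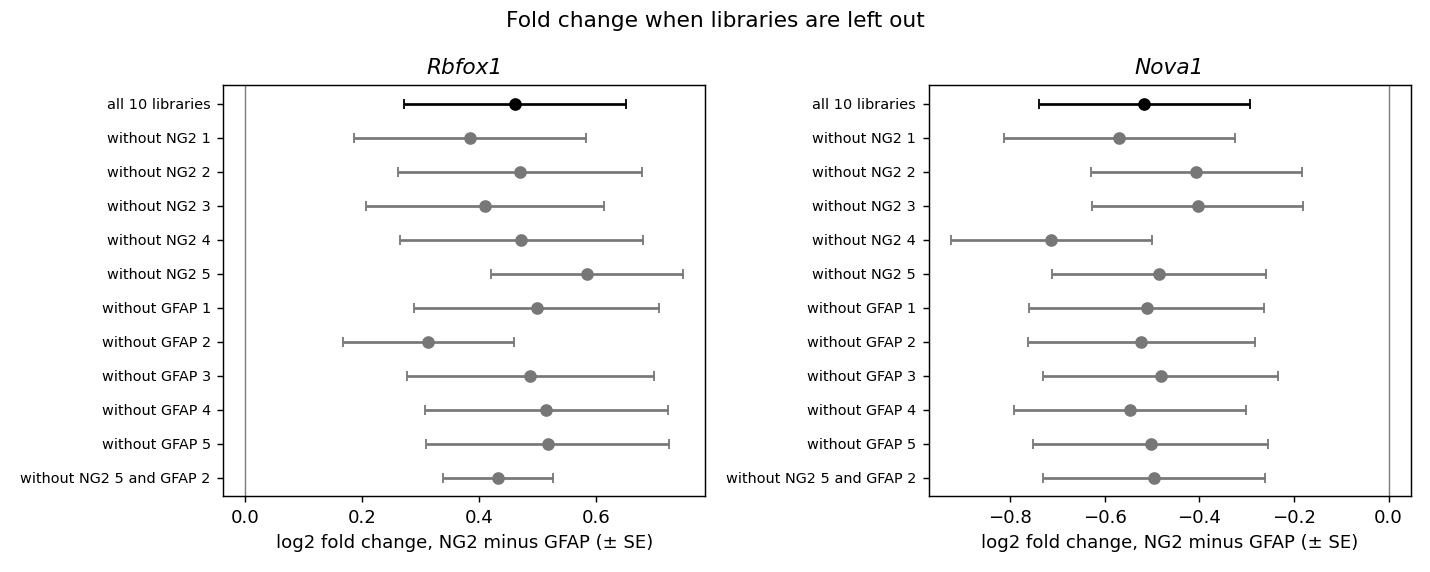
Log2 fold change, NG2 minus GFAP, of Rbfox1 (left) and Nova1 (right) with all 10 libraries, with each library left out in turn, and without NG2 5 and GFAP 2; points are edgeR estimates and bars their SE. Rbfox1 stays between 0.31 and 0.58 and Nova1 between -0.71 and -0.40.

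The other Rbfox genes did not pass, and their fold changes were small beside their errors. Rbfox2, which is also made outside the nervous system, averaged 149.6 ± 17.7 CPM in NG2 against 158 ± 22.7 CPM in GFAP libraries, over a range of 122 to 187 CPM. Rbfox3, which encodes the neuronal nuclear antigen NeuN, averaged 178 ± 21.2 CPM in NG2 against 168 ± 22.3 CPM in GFAP libraries, over a range of 132 to 207 CPM (SD, n = 5 each). Their log2 fold changes were -0.08 (SE 0.12) and 0.08 (SE 0.11), with edgeR Benjamini-Hochberg adjusted p of 0.824 and 0.803. Within the family, Rbfox1 made up 42.9% ± 4.14 of the summed FPKM in NG2 and 35.6% ± 4.11 in GFAP libraries, and Rbfox3 35.7% ± 3.29 in NG2 and 38.6% ± 2.76 in GFAP libraries. AL603843.1, a same-strand gene model with 175 to 518 reads a library, lies inside Rbfox2, so the split of reads between them is uncertain.

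Nova1 (ENSMUSG00000021047, chromosome 12, 46694517 to 46818929, minus strand) had the largest negative difference. It had 7.78, 4.68, 4.66, 10.2 and 6.26 CPM in NG2 replicates 1 to 5, against 9.76, 9.42, 10.5, 8.68 and 9.80 CPM in GFAP replicates 1 to 5. The GFAP libraries lay close together, and 4 of 5 NG2 libraries were below all of them. NG2 replicate 4 was within the GFAP range. The log2 fold change was -0.52 (SE 0.22), with an edgeR unadjusted p of 0.0359 and a Benjamini-Hochberg adjusted p of 0.353. It was -0.71 without NG2 replicate 4, still not past the threshold (edgeR, Benjamini-Hochberg adjusted p = 0.233), and -0.11 by voom with sample weights. With 67 to 163 reads a library, counting alone gives Nova1 an error of 8.98% at its mean count. The spread was 34.9% among NG2 and 6.80% among GFAP libraries. Gm48542, a same-strand gene model inside Nova1, had 2 to 61 reads a library, and its reads came to 10.4% of those of Nova1. Its log2 fold change was 0.80 (edgeR, Benjamini-Hochberg adjusted p = 0.694), and the split of reads between them is uncertain.

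Nova2, which in the mouse is the main Nova protein of the neocortex, while Nova1 is prominent in hindbrain and spinal cord, had 75.7, 50.5, 66.8, 66.2 and 55.5 CPM in NG2 replicates 1 to 5, against 72.3, 42.7, 68.9, 75.1 and 59.4 CPM in GFAP replicates 1 to 5. Its log2 fold change was -0.02 (SE 0.15, edgeR, Benjamini-Hochberg adjusted p = 0.976), with a 95% interval of 0.789 to 1.24 for the ratio of NG2 to GFAP. In FPKM, Nova2 exceeded Nova1 in all 10 libraries, by 10.5 ± 3.01 times in NG2 and 6.95 ± 1.60 times in GFAP libraries (SD, n = 5 each).

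Srrm4, the activator of short neuronal exons, had 203, 144, 192, 198 and 237 CPM in NG2 replicates 1 to 5, against 216, 139, 231, 234 and 223 CPM in GFAP replicates 1 to 5. Replicate 2 of each group was well below the others. The log2 fold change was -0.10 (SE 0.15, edgeR, Benjamini-Hochberg adjusted p = 0.825). Leaving out GFAP replicate 2 gave -0.215 and leaving out NG2 replicate 2 gave -0.004. Without NG2 replicate 5 and GFAP replicate 2 together it was -0.295 (edgeR, unadjusted p = 0.0139, Benjamini-Hochberg adjusted p = 0.133). Srrm4 (ENSMUSG00000063919, chromosome 5, 116439275 to 116591817, minus strand) overlaps its antisense gene Srrm4os, whose reads came to 25.2% of those of Srrm4, and without a stated strand setting the reads of the pair cannot be told apart.

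The neuronal Elavl genes did not pass either. Elavl4 (HuD) varied least of the 10 genes, from 379.6 to 479 CPM, and averaged 419 ± 24.3 CPM in NG2 against 426 ± 33.0 CPM in GFAP libraries (SD, n = 5 each). Its 95% interval for the ratio of NG2 to GFAP was 0.867 to 1.12, the narrowest of the 10. Elavl3 (HuC) had 242, 127, 264, 209.8 and 248 CPM in NG2 replicates 1 to 5, against 244, 154, 302, 232 and 241 CPM in GFAP replicates 1 to 5. Replicate 2 was again the lowest library of each group. The log2 fold changes were -0.02 (SE 0.09) for Elavl4 and -0.10 (SE 0.19) for Elavl3, with edgeR Benjamini-Hochberg adjusted p of 0.939 and 0.864.

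**Figure D3:**
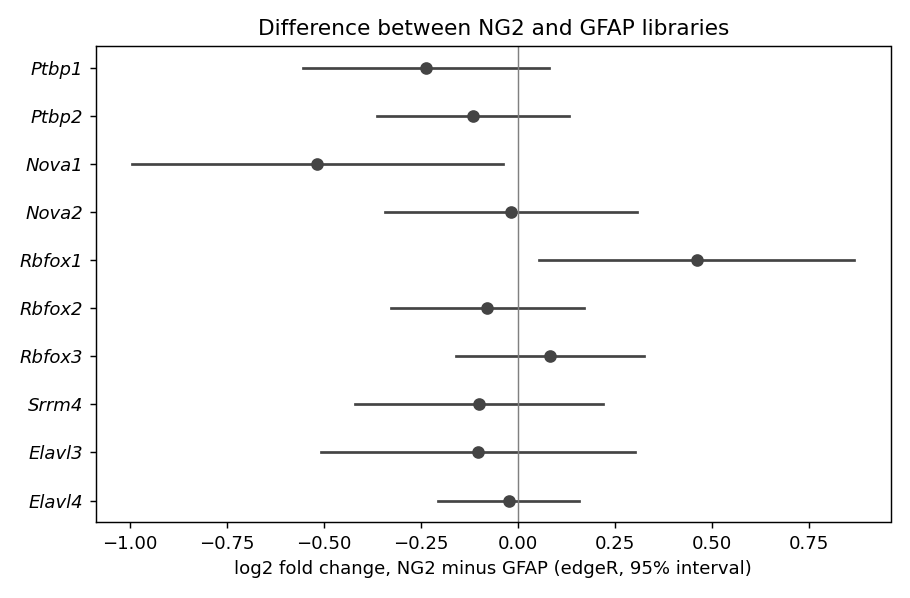
Log2 fold change, NG2 minus GFAP, of the 10 genes by edgeR with 95% intervals that are not adjusted for the number of genes tested. The intervals of Rbfox1 (0.05 to 0.87) and Nova1 (-0.99 to -0.04) leave out 0, and the other 8 include it.

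Single libraries stood out for several genes at once. GFAP replicate 2 was the highest of the 10 libraries for Ptbp1 and the lowest for Nova2, Rbfox1, Rbfox3 and Srrm4. The same library had a radial glia score of 0.57, where the other 4 GFAP libraries had 0.01 to 0.10, and a neuron score of -0.45, where they had -0.18 to 0.01 (a score is the mean log2 difference of the list's genes from their mean over the 10 libraries). Its proliferation score was 0.71, against -0.12 to 0.03 in the other GFAP libraries. NG2 replicate 2 was the lowest library for Elavl3 and Elavl4 and had the lowest radial glia score, -0.62. NG2 replicate 5 was the lowest for Ptbp2 and Rbfox2 and the highest for Srrm4. The part of these library differences in the comparison of the groups was not tested beyond leaving libraries out.

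**Figure D4:**
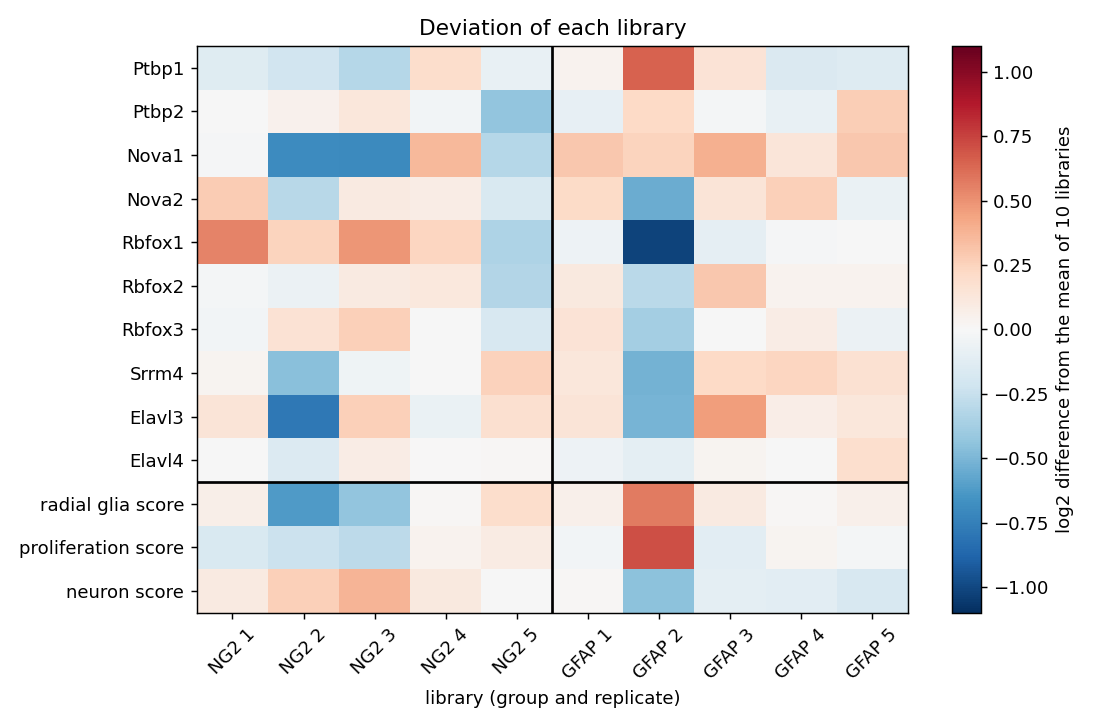
Log2 difference of each library from the mean of the 10 libraries (colour) for the 10 genes and for 3 marker scores below the line; NG2 libraries are left of the vertical line and GFAP libraries right of it. GFAP 2 combines high Ptbp1, low Rbfox1 and a radial glia score of 0.57.

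Rbfox3 and Rbfox1 had the strongest relations to the marker scores across libraries. In all, 20 relations were computed, each of the 10 genes against the radial glia and the neuron score, over 10 libraries with two-sided permutation tests of 100000 resamples. Of these, 3 passed an adjusted p of 0.05 by Pearson's r and 0 by Spearman's rho. As scores and genes can both differ between the groups, r was also computed after removing the group means, with permutation within groups, a choice made after the data were seen.

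Rbfox3 correlated with the neuron score at Pearson r = 0.81 (permutation p = 0.00557, Benjamini-Hochberg adjusted p = 0.0371) and Spearman rho = 0.68 (permutation p = 0.0352, adjusted 0.155). Without GFAP replicate 2 and NG2 replicate 3, the libraries farthest from the median score, r was 0.38. With the group means removed it was 0.99 (permutation p = 0.00023, adjusted 0.0046; rho = 0.96, permutation p = 0.00068, adjusted 0.0136), and 0.96 without the farthest libraries of that fit, GFAP replicate 2 and NG2 replicate 5. The relation of Rbfox3 to the radial glia score was negative, at r = -0.85 (permutation p = 0.00244, adjusted 0.0244) and rho = -0.85 (permutation p = 0.00277, adjusted 0.0554), and r was -0.83 without NG2 replicate 2 and GFAP replicate 2. With the group means removed, that r was -0.87 (permutation p = 0.00538, adjusted 0.0538) and rho was -0.90 (permutation p = 0.0033, adjusted 0.033). There the relation passed by rho and not by r.

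Rbfox1 correlated with the neuron score at r = 0.85 (permutation p = 0.00239, adjusted 0.0244) and rho = 0.72 (permutation p = 0.0228, adjusted 0.155), and r was 0.56 without GFAP replicate 2 and NG2 replicate 3. With the group means removed, r was 0.78 and no longer passed (permutation p = 0.0222, adjusted 0.111), and it was 0.05 without GFAP replicate 2 and NG2 replicate 5, so the relation within groups rests on those libraries. The relation of Rbfox1 to the radial glia score did not pass, at r = -0.75 (permutation p = 0.0186, adjusted 0.0532) and rho = -0.67 (permutation p = 0.0387, adjusted 0.155). With the group means removed that r was -0.65 (permutation p = 0.0465, adjusted 0.137), and 0.23 without GFAP replicate 2 and NG2 replicate 5. With scaling by library size alone, 0 relations passed by either measure. There r was 0.86 for Rbfox1 with the neuron score (permutation p = 0.00319, adjusted 0.0635), 0.77 for Rbfox3 with the neuron score and -0.68 for Rbfox3 with the radial glia score.

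Ptbp1 and Nova1 had relations of the opposite sign that did not pass. Ptbp1 had r = 0.77 with the radial glia score (permutation p = 0.0125, adjusted 0.0532; rho = 0.71, permutation p = 0.0269, adjusted 0.155) and r = -0.74 with the neuron score (permutation p = 0.0178, adjusted 0.0532; rho = -0.44, permutation p = 0.206, adjusted 0.587). Without the farthest pair these r were 0.56 and -0.11. Nova1 had r = 0.72 with the radial glia score (permutation p = 0.0167, adjusted 0.0532; rho = 0.37, permutation p = 0.296, adjusted 0.740) and r = -0.70 with the neuron score (permutation p = 0.0217, adjusted 0.0542; rho = -0.49, permutation p = 0.156, adjusted 0.521), and 0.63 and -0.66 without the farthest pair. Srrm4, Elavl3 and Elavl4 had r of 0.02, 0.06 and 0.01 with the neuron score (permutation p from 0.856 to 0.977, adjusted 0.977 for each; rho of -0.33, 0.10 and -0.07, with permutation p from 0.350 to 0.866). Without GFAP replicate 2 and NG2 replicate 3 these r were -0.86, -0.77 and -0.81, so their size and sign turned on that pair.

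**Figure D5:**
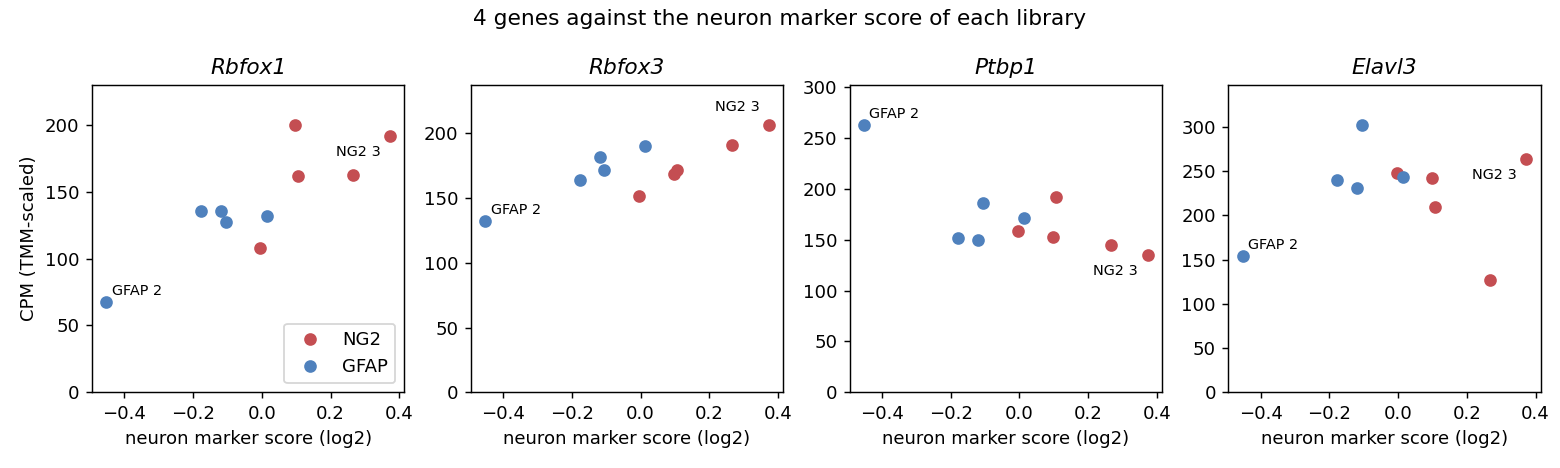
CPM of Rbfox1, Rbfox3, Ptbp1 and Elavl3 (y axis) against the neuron marker score of each library on the log2 scale (x axis), with NG2 and GFAP libraries in different colours. GFAP 2 lies at a score of -0.45 with the lowest Rbfox1 and Rbfox3 and the highest Ptbp1, and NG2 3 lies at 0.37.

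Among the members, Srrm4 and Elavl3 had the closest profiles over the 10 libraries (r = 0.88), and Ptbp1 with Rbfox1 had the most negative r (-0.78). These are descriptions over libraries that share depth and composition. GFAP replicate 2 held both the highest Ptbp1 and the lowest Rbfox1, at 0.65 and -1.01 from their means on the log2 scale. How far the negative r rests on that library was not tested. Searched over 10450 other protein-coding genes with a mean of at least 5 CPM, the gene most like Rbfox1 was the chromatin remodeller Smarca2 (r = 0.98), and the one most like Nova2 was Cacna1b, a neuronal calcium channel subunit (r = 0.97). Trio, a guanine nucleotide exchange factor of growing axons, was the most alike for both Srrm4 (r = 0.97) and Elavl3 (r = 0.94). The closest genes were Mid1ip1 for Ptbp1 (r = 0.97), Caap1 for Ptbp2 (r = 0.96), Gstcd for Nova1 (r = 0.96), Tmem178b for Rbfox2 (r = 0.95), Rspo3 for Rbfox3 (r = 0.98) and Mtdh for Elavl4 (r = 0.90), and none of these passed an adjusted p of 0.05 between the groups by edgeR. Each is the highest of 10450 values of r over only 10 libraries, which selection alone makes large, and none was tested.

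The promoters of Ptbp1 and Rbfox1 are shown because this pair of members had the most negative r over the 10 libraries, GFAP replicate 2 included. RefSeq windows of 300 bases around a start (GRCm38.p6) were available for 9 of the 10 genes. Neither Rbfox1 window holds the start of the gene in the deposited coordinates, 5885355, while the Ptbp1 window holds that of Ptbp1, 79854427. Capitals mark matches to the E-box letters CAGATG and CAGCTG on either strand, motifs bound by proneural factors.
Ptbp1, chr10:79854182-79854481, plus strand: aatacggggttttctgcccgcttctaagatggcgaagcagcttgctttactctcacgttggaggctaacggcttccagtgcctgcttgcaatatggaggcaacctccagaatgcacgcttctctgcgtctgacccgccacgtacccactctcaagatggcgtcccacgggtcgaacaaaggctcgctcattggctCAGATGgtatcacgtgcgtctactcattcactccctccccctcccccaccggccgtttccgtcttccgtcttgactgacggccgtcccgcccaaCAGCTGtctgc
Rbfox1, first start, chr16:5884543-5884842, plus strand: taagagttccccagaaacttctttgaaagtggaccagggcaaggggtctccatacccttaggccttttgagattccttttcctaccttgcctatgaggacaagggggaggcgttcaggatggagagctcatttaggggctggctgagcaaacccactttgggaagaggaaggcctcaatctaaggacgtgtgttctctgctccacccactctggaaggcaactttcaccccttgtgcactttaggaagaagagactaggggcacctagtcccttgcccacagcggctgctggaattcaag
Rbfox1, second start, chr16:7069585-7069884, plus strand: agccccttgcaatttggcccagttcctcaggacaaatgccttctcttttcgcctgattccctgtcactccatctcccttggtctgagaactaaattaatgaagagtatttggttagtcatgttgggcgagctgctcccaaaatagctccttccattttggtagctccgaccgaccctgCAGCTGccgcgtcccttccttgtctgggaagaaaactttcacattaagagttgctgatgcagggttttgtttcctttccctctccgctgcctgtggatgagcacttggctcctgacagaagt
Ptbp1 held 22 CpG dinucleotides in its window, against 3 and 7 in the Rbfox1 windows and a median of 7 over all 32851 windows. CAGATG was found in 17.2% and CAGCTG in 16.3% of all windows, so a match is no rare feature.

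Genes in 7 further lists were also not called by the same fit. The lists hold RNA-binding proteins, genes of the REST repressor complex and genes with exons regulated by the members, so not all are RNA-binding genes. Of their 124 tested genes, 0 passed an adjusted p of 0.05 by edgeR (0.148% of all tested genes) and 21 lay below an unadjusted p of 0.05 (12.8% of all tested genes). DESeq2 called 3 of the 124, where it called 2.66% of all genes, and voom called 15, where it called 8.9%. Limma-trend on log2(FPKM + 1) called 0, where it called 0.0741%, and edgeR without NG2 replicate 5 and GFAP replicate 2 called 3, where it called 1.61%. Of 13 tested RNA-binding proteins linked to progenitors, 9 were negative and 4 positive (median log2 fold change -0.19). In this list 3 lay below an unadjusted p of 0.05 by edgeR, all lower, where 6.33% of all tested genes were lower. The most abundant were Ybx1 at 945 ± 39.9 CPM in NG2 against 909 ± 82.4 CPM in GFAP libraries, and Khdrbs1, the splicing factor Sam68, at 427 ± 33.8 CPM in NG2 against 401 ± 29.2 CPM in GFAP libraries. Of 23 other neuronal RNA-binding proteins, 15 were negative and 8 positive (median -0.04). Below an unadjusted p of 0.05 by edgeR, 2 were higher, where 6.45% of all tested genes were, and 2 lower, where 6.33% were. The most abundant were Celf2 at 774 ± 76.1 CPM in NG2 against 796 ± 113 CPM in GFAP libraries and Khdrbs3 at 371 ± 23.4 CPM in NG2 against 329 ± 13.8 CPM in GFAP libraries (SD, n = 5 each). Celf1 was listed at 0 in all 10 libraries, and whether its reads were left out or assigned elsewhere was not tested.

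Of 25 hnRNP genes, 15 were negative and 10 positive (median -0.02). In this list 0 lay below an unadjusted p of 0.05 by edgeR, where 12.8% of all tested genes did. The most abundant were Hnrnpa2b1 at 2536 ± 384 CPM in NG2 against 2483 ± 317 CPM in GFAP libraries and Hnrnpk at 1865 ± 310 CPM in NG2 against 1792 ± 245 CPM in GFAP libraries. Of 23 SR and related genes, 17 were negative and 6 positive (median -0.04). In each direction 1 lay below an unadjusted p of 0.05 by edgeR, where 6.45% of all tested genes were higher and 6.33% lower. The most abundant were Srsf3 at 1005 ± 140 CPM in NG2 against 1015 ± 122 CPM in GFAP libraries and Nono at 932 ± 31.3 CPM in NG2 against 944 ± 85.3 CPM in GFAP libraries (SD, n = 5 each). Of the Ptbp co-repressors, Matr3 stood at 446 ± 46.4 CPM in NG2 against 419 ± 39.0 CPM in GFAP libraries and Raver2 at 6.02 ± 3.35 CPM in NG2 against 8.38 ± 2.20 CPM in GFAP libraries (SD, n = 5 each), a log2 fold change of -0.48 (SE 0.50).

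REST, a repressor of neuronal genes that represses Srrm4 and whose own transcript is spliced by Srrm4, works with co-repressors that remove histone marks. Of 8 genes of this complex, 4 were positive and 4 negative (median -0.02). In this list 2 lay below an unadjusted p of 0.05 by edgeR, both lower, where 6.33% of all tested genes were lower. They were Rcor1 at -0.26 and Sin3a at -0.29 on the log2 scale, named after their values were seen. Rest itself, also outside the naming rule, averaged 21.0 ± 7.45 CPM in NG2 against 25.7 ± 4.38 CPM in GFAP libraries (log2 fold change -0.29, edgeR, Benjamini-Hochberg adjusted p = 0.602). The most abundant were Hdac2 at 941 ± 107 CPM in NG2 against 849.9 ± 22.0 CPM in GFAP libraries and Kdm1a at 500.0 ± 45.5 CPM in NG2 against 499 ± 25.0 CPM in GFAP libraries (SD, n = 5 each). Of 30 genes with exons known to be regulated by the members, 17 were positive and 13 negative (median 0.06), and 10 lay below an unadjusted p of 0.05. Of these 8 were higher, where 6.45% of all tested genes were, and 2 were lower, where 6.33% were. The most abundant of them were the axon guidance receptor gene Robo2 at 335 ± 41.7 CPM in NG2 against 381 ± 114 CPM in GFAP libraries, and the kinesin gene Kif1b at 272 ± 26.6 CPM in NG2 against 305 ± 44.8 CPM in GFAP libraries (SD, n = 5 each).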

How the data were processed

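Per the labels' protocols, total RNA was amplified (SMARTer), and poly(A)-enriched libraries were sequenced as paired ends. The deposited counts per gene are raw whole numbers, and the submitters' processing notes name HISAT2, featureCounts 1.5.0-p3 and GRCm38.p6. Neither the strand setting nor the handling of multimapping reads nor the gene models' release is stated there. Amplification without molecular identifiers adds error that depth does not show. The deposited FPKM equal the count over gene length over a per-library constant, which lay between 0.929 and 1.05 times the count total. The authors' deposited log2 fold changes and p-values come from a tool not named in the sources used here. For the members, the deposited log2 fold changes and unadjusted p were nearly equal to those of the DESeq2 fit used here. The adjusted p differed slightly.

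Tests used edgeR 4.0.16 (R 4.3.3) quasi-likelihood on the counts, with TMM, filterByExpr defaults, and Benjamini-Hochberg adjustment across all 16187 genes tested. Fold changes are NG2 minus GFAP. Alternatives used DESeq2 1.42.0, limma 3.58.1 (voom with sample weights; limma-trend on log2 FPKM with pseudocounts of 1 and 0.1), other scalings, no filter, the replicate block and libraries left out. The script was tested on simulated data. Scores and correlations use log2(CPM + 0.5).

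The members and the 18 gene lists (7 of RNA-binding genes, repressors and targets, 11 of cell markers) were chosen with earlier results of these data known. All members are named, and from each list of RNA-binding genes, repressors or targets up to 3 genes past the threshold or, with none, the 2 with the highest mean CPM. For each member the most correlated other protein-coding gene is named. Genes outside this rule are marked in the text as picked with their values in view, except genes overlapping a member and Cspg4 and Gfap, which check the labels.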

Additional observations from a re-analysis of the deposited data

Results flagged for a closer look

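A library whose gap to the nearest of its group exceeded Dixon's critical value for 5 samples (0.71 of the group's range) was found in 4 of 26 checks, where chance flags about 1 in 20. All 4 concern GFAP replicate 2. Rbfox1 stood at 67.4 CPM in this library, against 128 to 136 CPM in the other 4 GFAP libraries. Srrm4 stood at 139 CPM, against 216 to 234 CPM. The radial glia score was 0.57, against 0.01 to 0.10, and the proliferation score was 0.71, against -0.12 to 0.03. The 4 values come from 1 library and are not independent.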

How the results depend on the processing

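No member was called in either direction by edgeR under the other scalings, without the filter, with a library left out in turn, by DESeq2 or by limma-trend. The exception was Rbfox1, giving 1 member called higher by voom and 1 without NG2 5 and GFAP 2 together. Over all genes, 12 were higher and 12 lower in NG2. The higher count was 58 without a filter, 212 by DESeq2, 584 by voom, 109 without that pair and 3 to 70 with 1 library left out. The lower count was 37 without a filter, 134 by DESeq2, 857 by voom, 3 by limma-trend on log2(FPKM + 1) and 3 on log2(FPKM + 0.1), 154 without that pair and 0 to 47 with 1 library left out. Among single libraries left out, the highest of both counts came without NG2 replicate 5, and leaving out NG2 replicate 1 alone kept both within 1.5 times.

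Same-numbered libraries deviated together with r of -0.02 to 0.08, and 1 of 5 numbers correlated best with its own, so the numbers were not taken as pairs. With the replicate block, 1 gene was higher and 0 were lower, and 0 members passed.

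The sign of at least 1 uncalled member turned in 10 of the 19 alternatives, that of Nova2 in 7, and the cause was not tested. Ptbp1 was at 0.088 and Rbfox3 at -0.012 by voom, and Ptbp2 at 0.01 without NG2 5 and GFAP 2. Nova2 was at 0.007 and 0.009 by limma-trend on FPKM with pseudocounts of 1 and 0.1. With 1 library left out, Nova2 ran from -0.13 to 0.057, Elavl3 from -0.219 to 0.045 and Elavl4 from -0.05 to 0.028. Without a change of sign, Ptbp2 ran from -0.155 to -0.03, Rbfox2 from -0.152 to -0.007 and Rbfox3 from 0.011 to 0.139. Of the correlations, 3 passed an adjusted p of 0.05 by Pearson's r, against 0 with scaling by library size alone, where these 3 had r of 0.86, 0.77 and -0.68. With group means removed, 1 passed by r (Rbfox3 with the neuron score). By rho, that relation and the one of Rbfox3 with the radial glia score passed there. Counting error was under 3.5% for 9 members, so depth limits Nova1 most.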

Other observations

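Elavl2 (HuB), the remaining neuronal Elavl gene, is not among the 10 genes and was picked with its values in view. It averaged 221 ± 43.0 CPM in NG2 against 298 ± 35.4 CPM in GFAP libraries (SD, n = 5 each), or -0.43 on the log2 scale (SE 0.13), and did not pass (edgeR, Benjamini-Hochberg adjusted p = 0.214). Qk, also chosen in this way, a glial and progenitor RNA-binding protein, averaged 237 ± 38.2 CPM in NG2 against 304 ± 27.3 CPM in GFAP libraries, and Celf6, a neuronal splicing factor, averaged 13.95 ± 5.93 CPM in NG2 against 8.42 ± 1.62 CPM in GFAP libraries. Their log2 fold changes were -0.36 (SE 0.11) and 0.73 (SE 0.24), with edgeR Benjamini-Hochberg adjusted p of 0.241 and 0.256, so neither passed.

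Among genes whose exons the members are known to regulate, also chosen after their values were seen, Flna, an actin-binding protein, averaged 189.7 ± 25.1 CPM in NG2 against 260.2 ± 31.0 CPM in GFAP libraries. Dab1, the adaptor of Reelin signalling, averaged 217 ± 39.1 CPM in NG2 against 159 ± 18.3 CPM in GFAP libraries, and Mapt, the microtubule protein tau, 324 ± 59.9 CPM in NG2 against 241 ± 43.6 CPM in GFAP libraries (SD, n = 5 each). Their log2 fold changes were -0.46 (SE 0.11), 0.45 (SE 0.13) and 0.43 (SE 0.14), with edgeR Benjamini-Hochberg adjusted p of 0.134, 0.181 and 0.262, so 0 of the 3 passed.

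Of the 87 tested genes in the 11 marker lists, 0 passed by edgeR (0.148% of all genes tested) and 25 lay below an unadjusted p of 0.05 (12.8% of all), while 8 passed by DESeq2 (2.66% of all), 13 by voom (8.9%) and 0 by limma-trend on log2(FPKM + 1) (0.0741%). Summed microglia markers ranged from 26.6 to 361 CPM in NG2 and from 42.1 to 165 CPM in GFAP libraries. All 9 tested had a positive fold change, and 0 lay below an unadjusted p of 0.05 by edgeR. The microglia score was highest in NG2 replicate 1 (1.84) and lowest in NG2 replicate 3 (-1.49). Endothelial and mural markers summed to at most 30.4 CPM in NG2 against 31.6 CPM in GFAP libraries, meningeal fibroblast markers to at most 15.8 CPM in NG2 against 20.2 CPM in GFAP, oligodendrocyte precursor markers to at most 12.6 CPM in NG2 against 7.68 CPM in GFAP, and Cajal-Retzius markers to at most 31.1 CPM in NG2 against 54.4 CPM in GFAP libraries. All 4 tested Cajal-Retzius markers were negative and below an unadjusted p of 0.05 by edgeR (median log2 fold change -1.29), where 6.33% of all tested genes were lower. GABAergic neuron markers ranged from 62.4 to 201 CPM in NG2 and from 106 to 196 CPM in GFAP libraries, and red blood cell markers from 244 to 504 CPM in NG2 and from 242 to 445 CPM in GFAP libraries. Of 8 intermediate progenitor markers 6 were negative, and of 10 proliferation markers all were negative. The part of these cells in the values of the 10 genes was not tested.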
